A study of Mus musculus with 40 samples.

Results

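The 9 genes described here mark the contractile apparatus of skeletal muscle fibres: Acta1, Ckm, Myh1, Myh2, Myh4, Myh7, Tnnt1, Tnnt3 and Mylpf. They were chosen by name as fibre genes and are 9 of the 37310 genes in the deposited table. All 9 passed the filter on low values and were tested. Of these, 5 belong to fast fibres (Myh1, Myh2, Myh4, Tnnt3 and Mylpf), 2 belong to slow fibres (Myh7 and Tnnt1) and 2 are shared by both (Acta1 and Ckm).

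The samples are mouse lung tissue from a study of squamous lesions of the airway. Female SWR/J and A/J mice entered the study at about 8 weeks of age and were treated on the skin with N-nitrosotris-(2-chloroethyl)urea (NTCU), a carcinogen that gives rise to squamous lesions in the lung, or with its acetone vehicle. RNA came from laser capture microdissected (LCM) tissue or from fresh frozen sections of whole lung. Of 40 libraries, 25 passed the quality control of the study and are used here. They are 7 normal samples from vehicle-treated mice of both strains, 5 samples graded mild dysplasia, all from SWR/J mice given 15 µmol of NTCU, and 13 high-grade samples. The high-grade group holds 9 samples of moderate to severe dysplasia (25 or 30 µmol in SWR/J, 14 µmol in A/J), 2 of severe dysplasia (SWR/J, 50 µmol), 1 carcinoma in situ and 1 squamous cell carcinoma (SCC) tumor (both A/J, 20 µmol). By sample type, 13 samples are LCM and 12 are whole lung, and by strain 17 are SWR/J and 8 are A/J. Dose thus moves with grade and strain, so that their parts cannot be told apart, and nothing in the labels ties samples to single animals. Samples were treated as independent, which holds only if no animal gave more than 1 of them. Replicate numbers below only name a sample within its grade. In 2 of the 25 samples the written description gives another grade than the grade label: normal replicate 10 is described as mild dysplasia and mild dysplasia replicate 5 as normal. The expected counts per sample summed to between 2667387 and 16534728.

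A skeletal muscle fibre contracts when myosin heavy chains pull on actin filaments, and calcium switches this on through the troponin complex on the thin filament. Each fibre makes mainly a single myosin heavy chain, which sets its speed: Myh4, Myh1 and Myh2 encode the chains of fast fibres (types 2B, 2X and 2A) and Myh7 that of slow fibres, while Myh7 is also a heavy chain of heart muscle. Lung parenchyma holds no skeletal muscle, whereas the muscle of the chest wall, diaphragm and neck lies close to it, and in mice cardiac muscle runs along the pulmonary veins into the lung.

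The fast myosin heavy chain genes lie side by side on chromosome 11 and have nearly the same coding sequence, which bears on how reads of 50 bases are told apart. Coding sequences of Myh1 and Myh2 were identical at 90.9% of aligned positions, those of Myh1 and Myh4 at 90.1%, and those of Myh1 and Myh7 at 77.1%. Of the 50-base words in the longest coding transcript, 26.7% in Myh1, 26.9% in Myh2, 19.2% in Myh4 and 22.2% in Myh7 also occurred in another gene, and for Myh7 all of them occurred in the atrial myosin gene Myh6. In Acta1 the share was 2.0%, and in Ckm, Mylpf, Tnnt1 and Tnnt3 it was 0. RSEM divides reads from shared words among the genes, so the values of single myosin genes are less certain than those of the other members. Both extremes are shown here in genome build NCBIM37 (plus strand), for the 3 fast myosins and for Myh8, the perinatal myosin of the same cluster. The first is a window inside a single exon that is the same in all 4 genes (Myh1 exon 14, chr11:67020033-67020082). The others are the window where the 4 genes differ most, in Myh1 (exon 16, chr11:67022611-67022660), Myh2 (exon 16, chr11:66994793-66994842), Myh4 (exon 14, chr11:67062204-67062253) and Myh8 (exon 16, chr11:67103285-67103334). Capitals mark the 28 of 50 positions at which the 4 genes are not all alike.
Myh1, Myh2, Myh4 and Myh8, alike: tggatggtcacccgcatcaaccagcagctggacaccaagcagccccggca
Myh1, unlike: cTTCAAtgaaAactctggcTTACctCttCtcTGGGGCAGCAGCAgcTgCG
Myh2, unlike: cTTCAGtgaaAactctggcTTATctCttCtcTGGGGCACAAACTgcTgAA
Myh4, unlike: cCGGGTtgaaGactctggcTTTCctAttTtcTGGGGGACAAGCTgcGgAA
Myh8, unlike: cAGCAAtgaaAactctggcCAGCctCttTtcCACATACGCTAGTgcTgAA

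A 50-base read from the window that is alike could not be given to a gene by its sequence, and a read from the other window could. Of 3935 such windows that lie within 1 exon, 151 were identical in the 4 genes.

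Acta1 (ENSMUSG00000031972), which encodes the actin of the skeletal muscle thin filament, had the highest single value of the 9, although its median over the 25 samples, 61.2 CPM, was below those of Tnnt3 (82.9) and Ckm (79.8). Values are CPM, counts scaled to library size, with TMM normalisation, a scaling of library size that leaves out the most extreme genes. In the 7 normal samples Acta1 lay between 0.33 and 625 CPM with a median of 61.2. The 5 samples of mild dysplasia had 0.947, 1.29, 3.52, 99.6 and 306 CPM. In the 13 high-grade samples it lay between 0.107 and 3772 CPM with a median of 164. The groups overlapped from end to end, and the spread within each grade covered a range of over 100-fold. Ckm (ENSMUSG00000030399), the muscle creatine kinase that buffers ATP, had a narrower range, 6.06 to 332 CPM in normal, 8.78 to 246 in mild dysplasia and 0.424 to 2516 in high-grade samples.

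Among fast fibre genes, Mylpf (ENSMUSG00000030672), the regulatory light chain of fast myosin, lay between 5.65 and 279 CPM in normal samples with a median of 31.7. In mild dysplasia it was 0.464, 0.878, 2.54, 78.6 and 98.8 CPM, and in high-grade samples it lay between 0.256 and 2294 CPM with a median of 187. The 4 highest samples were all high-grade and from SWR/J mice: moderate to severe dysplasia replicate 7 (LCM) at 2294 CPM, moderate to severe dysplasia replicate 13 (whole lung) at 1707, severe dysplasia replicate 4 (whole lung) at 1372 and severe dysplasia replicate 2 (LCM) at 647. Other high-grade samples were among the lowest of all, with 0.256 CPM in moderate to severe dysplasia replicate 11 and 0.530 in the carcinoma in situ.

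Tnnt3 (ENSMUSG00000061723), the troponin T of fast fibres, had 1.64 to 217 CPM in normal, 3.99 to 116 in mild dysplasia and 0.318 to 1716 in high-grade samples. It was the member with the highest value in severe dysplasia replicate 4 among the fast genes, at 1716 CPM. It also reached 82.9 CPM in moderate to severe dysplasia replicate 5 and 39.3 CPM in mild dysplasia replicate 2, where Mylpf was 7.14 and 0.878 CPM.

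The 3 fast myosin heavy chains differed in how widely they were found. Myh1 (ENSMUSG00000056328), the 2X chain, had at least 1 CPM in 18 of 25 samples, Myh4 (ENSMUSG00000057003), the 2B chain, in 18, and Myh2 (ENSMUSG00000033196), the 2A chain, in 11. Myh1 was 1224 CPM in severe dysplasia replicate 4, 806 in moderate to severe dysplasia replicate 13, 369 in moderate to severe dysplasia replicate 7 and 195 in severe dysplasia replicate 2. It was 0 in 5 samples. Myh4 was 156, 146, 85.6 and 14.3 CPM in the same 4 samples, and the last of these was below the 43.6 CPM of mild dysplasia replicate 3. Myh2 did not follow them: it was 42.6 CPM in severe dysplasia replicate 4 and 39.2 in moderate to severe dysplasia replicate 4, but 4.07 and 1.04 CPM in moderate to severe dysplasia replicates 13 and 7 and 0 in severe dysplasia replicate 2.

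**Figure D1:**
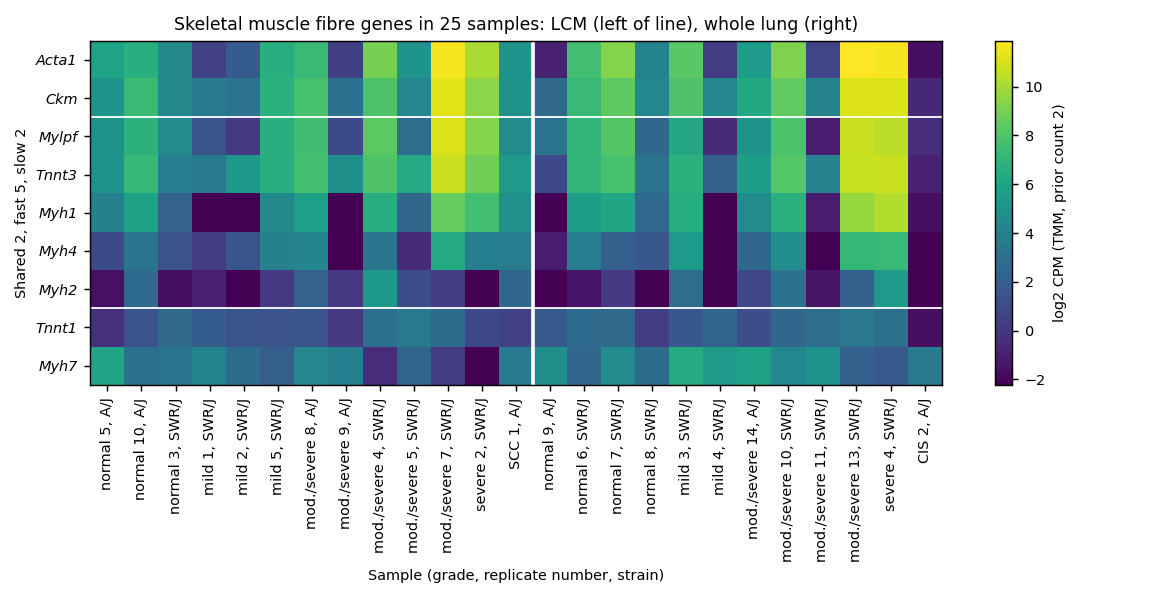
Heat map of log2 CPM (TMM, prior count 2; colour scale) of the 9 genes (rows) in the 25 samples (columns), with 13 LCM samples left of the vertical line and 12 whole lung samples right of it. Acta1, Ckm, Mylpf, Tnnt3 and Myh1 are brightest in the same 4 SWR/J high-grade columns, with up to 3772 CPM of Acta1, while Tnnt1 and Myh7 in the lowest rows are not.

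The slow fibre members Tnnt1 and Myh7 behaved otherwise. Tnnt1 (ENSMUSG00000064179), the troponin T of slow fibres, stayed low in all samples, between 0.106 and 10.6 CPM with a median of 3.19. Its SD over the 25 samples was 1.25 on the log2 scale, against 2.95 for Tnnt3 and 3.71 for Mylpf. Myh7 (ENSMUSG00000053093) lay between 0 and 87.5 CPM with a median of 11.3. In the 4 samples highest in Mylpf, in the order given above, Tnnt1 was 6.62, 10.1, 7.83 and 1.61 CPM, above its median in all but the last. In the same 4 samples Myh7 was 0.968, 4.04, 3.13 and 0 CPM. It was highest in mild dysplasia replicate 3 (87.5 CPM), normal replicate 5 (64.3), moderate to severe dysplasia replicate 14 (54.4) and mild dysplasia replicate 4 (41.0). In the last of these, Mylpf was 0.464 CPM and Myh1 was 0.

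Ordered by level per length, with the median over 25 samples in CPM per kb of exon, Tnnt3 (61.6) came before Ckm (56.4), Acta1 (42.3), Mylpf (37.9), Myh1 (3.74), Tnnt1 (1.46), Myh7 (1.31), Myh4 (0.911) and Myh2 (0.122). No gap between neighbours was larger than both SDs over samples. The widest, between Mylpf and Myh1, was 3.33 on the log2 scale with SDs of 3.71 and 4.06, although Mylpf was above Myh1 in 25 of 25 samples. Between Myh4 and Myh2 the gap was 2.64 with SDs of 2.92 and 2.39, and Myh4 was higher in 21 of 25. The first places rest on medians alone: Tnnt3 was above Ckm in 8 of 25 samples, Ckm above Acta1 in 13 and Acta1 above Mylpf in 11.

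To set fast against slow fibre genes in each sample, levels per kb were summed. The 5 fast genes together exceeded the 2 slow genes in 23 of 25 samples. The ratio was 1500 in severe dysplasia replicate 2, 1249 in moderate to severe dysplasia replicate 7, 773 in severe dysplasia replicate 4 and 640 in moderate to severe dysplasia replicate 13. It was below 1 in 2 samples, mild dysplasia replicate 4 (0.497) and the carcinoma in situ (0.609). The ratio depends on the genes chosen, since Mylpf has no slow light chain set against it. In severe dysplasia replicate 2 the fast myosins gave 33.1 of the fast sum of 1106.6 CPM per kb, still above the slow sum of 0.738. In moderate to severe dysplasia replicate 9 they gave 0.122 of 22.8, below Myh7 at 1.68. The count and ratios are therefore not a measure of fast against slow myosin. On the log2 scale, the mean of the 5 fast genes minus the mean of the 2 slow genes, per kb, had a median of 1.69 over samples and ran from -4.45 to 6.90, with an SD of 3.30. Because it weighs each gene alike, it was above 0 in fewer samples, 17 of 25. That count was 15 with a prior count of 0.25, 14 with the length of the longest transcript and 17 with no TMM factor. In bulk samples, fewer cells of a type and less RNA per cell cannot be told apart.

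Muscle RNA was widespread: with a line drawn for description at 10 CPM of Mylpf, 16 of 25 samples lay above it. The nearest to the line were the SCC tumor at 23.5 CPM above it and normal replicate 9 at 9.01 CPM below it. Within those 16 samples the ratio of Tnnt3 to Mylpf CPM, which compares reads and not transcript numbers, ran from 0.587 to 1.72, that of Ckm to Mylpf from 0.771 to 3.13 and that of Acta1 to Mylpf from 0.878 to 3.89. The highest ratios of Ckm and Acta1 were both in mild dysplasia replicate 3, the sample with the most Myh6 (807 CPM). The part of cardiac muscle in these ratios was not tested. The fast myosins varied more: Myh1 to Mylpf ran from 0.161 to 1.29, Myh4 to Myh1 from 0.0604 to 0.733, and Myh2 to Myh1 from 0 to 0.415. In these 16 samples, Myh7 had from 0 to 87.5 CPM and Tnnt1 from 0.595 to 10.1.

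**Figure D2:**
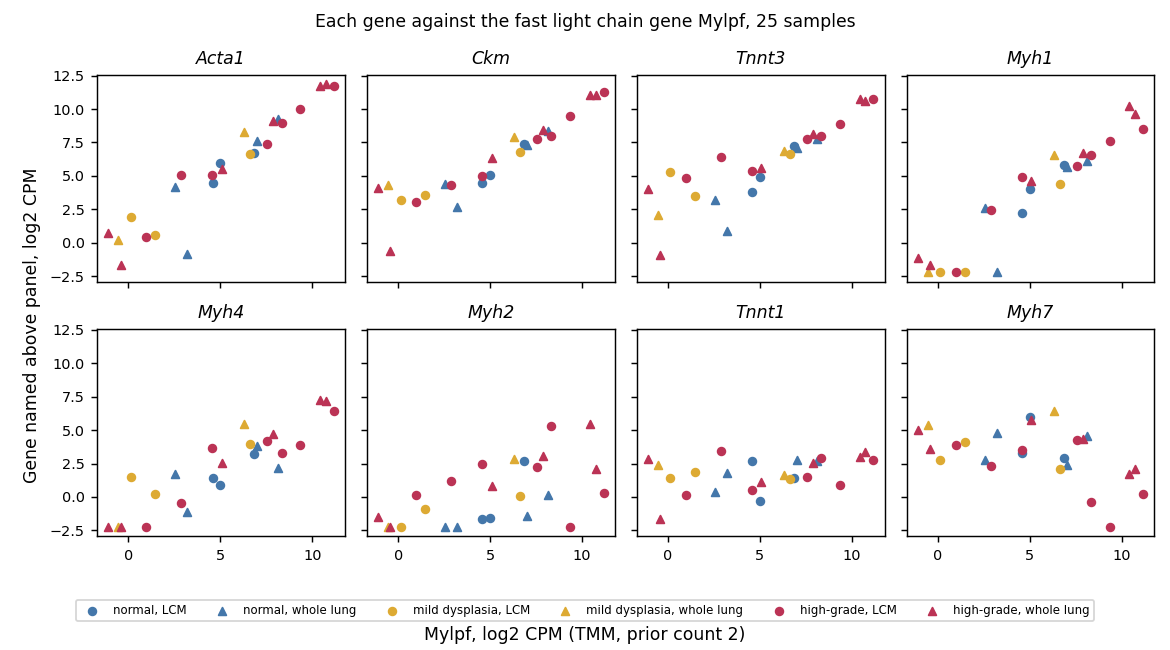
Scatter plots of log2 CPM (TMM, prior count 2) of 8 genes (vertical axes) against Mylpf (horizontal axis), with 1 point per sample, coloured by grade and shaped by sample type. Acta1, Ckm, Tnnt3 and Myh1 climb with Mylpf, Tnnt1 stays within a narrow band, and Myh7 is at its lowest, 0 CPM, in a sample with 647 CPM of Mylpf.

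Myosin heavy chain composition was described from Myh1, Myh2, Myh4, Myh7 and, from the wider list of muscle genes, Myh8, the perinatal chain that is largely replaced in adult limb muscle and persists in some head and neck muscles. Myh8 was abundant: 1629 CPM in moderate to severe dysplasia replicate 13, 1535 in severe dysplasia replicate 4, 663 in moderate to severe dysplasia replicate 7 and 379 in severe dysplasia replicate 2. Per kb of exon, Myh8 made up 47.6%, 36.7%, 43.7% and 49.3% of the 5 chains in these samples, and Myh1 43.7%, 54.2%, 45.1% and 47.1%. Over the 16 samples above the Mylpf line, Myh8 had a median share of 38.8% and Myh1 of 41.1%. Myh7 was the highest of the 5 in 10 of 25 samples, Myh8 in 8 and Myh1 in 7. These shares depend on the length used, since the annotated exons of Myh8 cover 11772 bases and its longest transcript 6149: with transcript lengths Myh8 was the highest in 12 samples, Myh1 in 3 and Myh7 again in 10. The embryonic heavy chain Myh3 and the extraocular heavy chain Myh13 were not found at such levels. Myh3 did not exceed 0.796 CPM and Myh13 did not exceed 1.30 CPM in any sample.

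**Figure D3:**
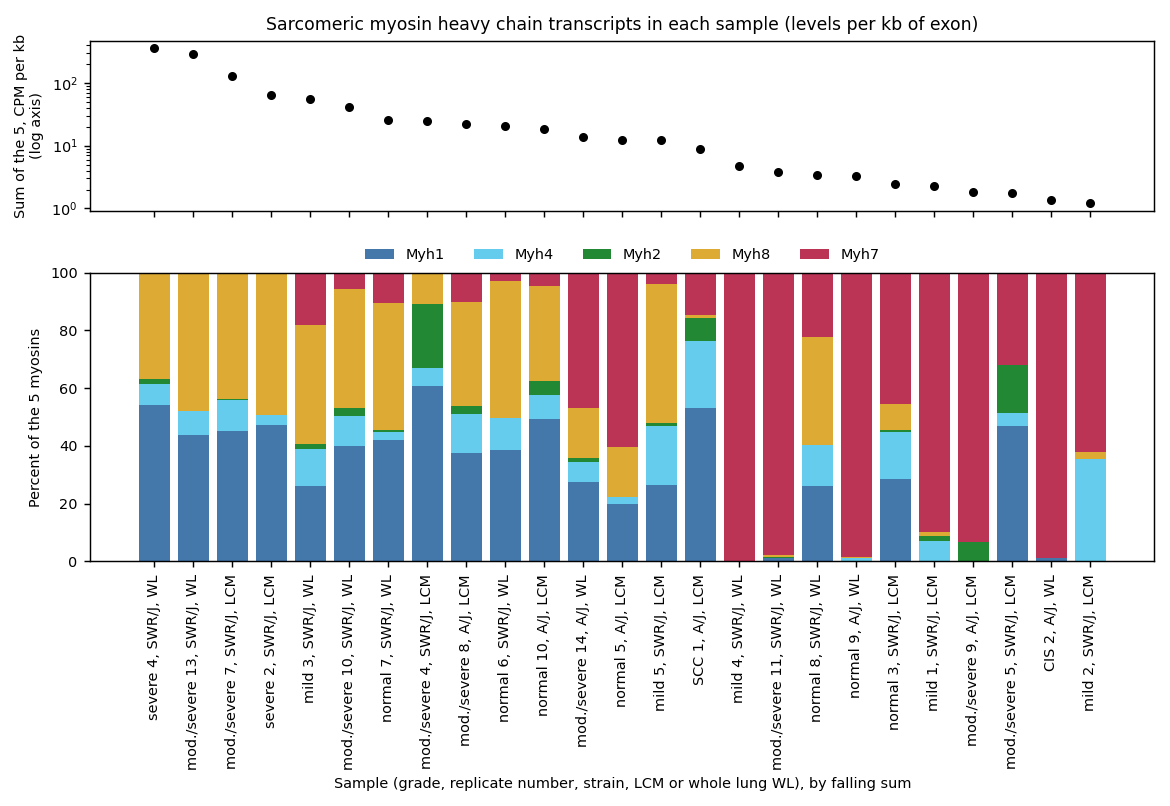
The upper plot gives the sum of 5 myosin heavy chain genes in CPM per kb (log axis) and the lower plot stacks the percent of that sum in Myh1, Myh4, Myh2, Myh8 and Myh7, for 25 samples ordered by falling sum. Myh1 and Myh8 fill most of each bar at the left, while Myh7 fills over 90% of several bars at the right, such as the carcinoma in situ (98.8%).

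Between high-grade lesions and normal lung, a contrast that asks what accompanies advanced lesions, none of the 9 genes passed a Benjamini-Hochberg adjusted p of 0.05 in edgeR's quasi-likelihood test with strain, sample type and median TIN in the model (0 of 9; 0.0192% of all 15630 genes were called). None reached an unadjusted p under 0.05 in this fit either, where 1420 of the 15630 genes did, and DESeq2 called 0 as well. The shared and fast genes had log2 fold changes from 1.29 ± 1.45 (SE) for Mylpf to 2.70 ± 1.58 for Myh2, with adjusted p from 0.617 to 0.783 in edgeR. Myh7 was at -0.64 ± 0.60 and Tnnt1 at 0.03 ± 0.50. The SD of Mylpf log2 CPM was 4.29 within the high-grade group and 2.08 in normal samples, around means of 5.95 and 5.33. That of Myh2 was 2.48 and 1.77, around means of 1.31 and -0.90, and the groups overlapped in both genes. These SDs and means are not adjusted for the covariates, so they are not on the scale of the estimates. Normal replicate 10, described as mild dysplasia, moved the Myh2 estimate by more than any other single sample. Without it Myh2 was at 6.58 ± 1.66 (adjusted p = 0.183 in edgeR). In that fit 3 of 9 genes (Myh2, Myh4 and Tnnt3) had an unadjusted p under 0.05, where 1711 of 15625 genes did, and 0 of 9 were called. Without any other single sample Myh2 lay between 2.16 and 3.17. With grades as described it was at 5.29 ± 1.56 (adjusted p = 0.535 in edgeR). There, in whole lung samples alone, with all 40 samples and without samples of low TIN, Myh2 alone of the 9 had an unadjusted p under 0.05. In the same order, 1125 of 15630, 1192 of 15558, 1287 of 15270 and 2189 of 15656 genes did.

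The 4 samples highest in Mylpf and Acta1 had median transcript integrity numbers (TIN, a measure of how evenly reads cover transcripts) of 39.1, 23.7, 33.9 and 21.7, where the 25 samples ran from 21.7 to 75.1. In the same order their summed levels of 5 thyroid markers were 7522, 7621, 519.5 and 141 CPM, while the median over LCM samples was 7.96 and over whole lung samples 5.79 CPM. Beyond them and normal replicate 7, only normal replicate 5 (136 CPM) and moderate to severe dysplasia replicate 14 (112 CPM) exceeded 25 CPM of thyroid markers. In the 4 samples highest in Mylpf and Acta1, the summed levels of 12 markers of squamous epithelium were 22760, 38968, 23856 and 19103 CPM. The medians over LCM and whole lung samples were 2835 and 1028. Normal replicate 7, with 279 CPM of Mylpf, had a TIN of 28.9, 299 CPM of thyroid markers and 96186 CPM of squamous markers. Of the latter, Krt4 was 56499 CPM and Krt13 22716 CPM there. Others of the 12 were low in every sample, with Krt1 at no more than 1.71 CPM and Krt10 at no more than 65.8 CPM. What part RNA quality or such tissue has in the muscle signal was not tested. Leaving out the 6 samples with a median TIN under 40 also gave 0 of 9 calls, with Mylpf at 1.08 ± 1.45 and Acta1 at 1.795 ± 1.59. Myh2 was then at 4.02 ± 1.71, with an adjusted p of 0.331 in edgeR.

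In mild dysplasia against normal samples, again 0 of 9 genes were called, where 12.6% of all genes were. None had an unadjusted p under 0.05, where 5128 of 15630 genes did, and DESeq2 called 0. The fast and shared genes had estimates from -2.62 ± 3.28 for Acta1 to 0.02 ± 2.21 for Myh4, and Myh7 was at 0.94 ± 0.83 (edgeR adjusted p = 0.444). The SEs of the fast genes, 2.03 to 3.26, were as large as the estimates, so that differences of this size were not detectable against the spread. The direction was not stable: with grades as described Acta1 was at 1.06, Ckm at 1.67, Myh1 at 1.68, Myh2 at 3.69, Tnnt3 at 1.41 and Mylpf at 0.98, and in whole lung samples alone these 6 genes lay between 2.60 and 6.18, with 0 of 9 called in both. All 5 mild samples are from SWR/J mice.

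**Figure D4:**
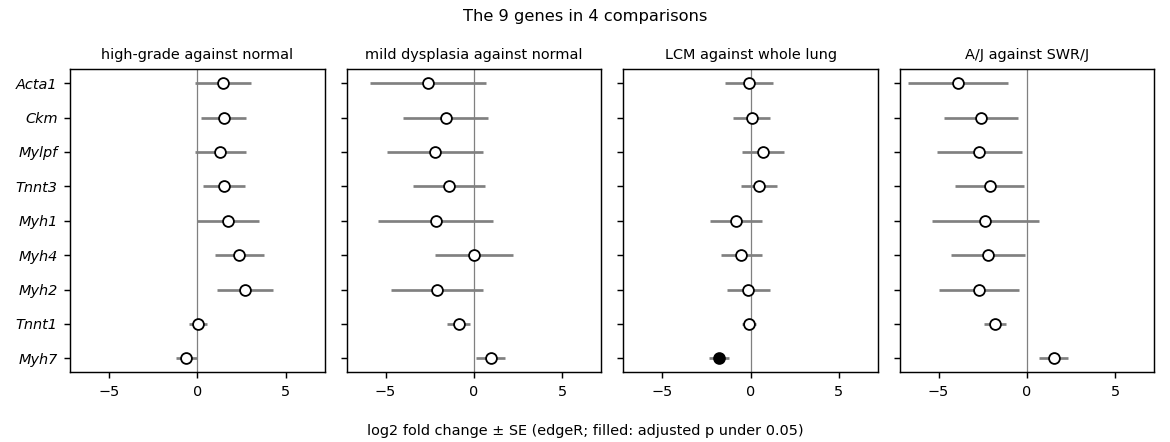
Log2 fold changes with SE (bars) of the 9 genes in the 4 comparisons, from edgeR, with 13 high-grade, 5 mild dysplasia and 7 normal samples, 13 LCM and 12 whole lung samples, and 8 A/J and 17 SWR/J samples. Only Myh7 in LCM against whole lung (-1.803) is filled, for an adjusted p under 0.05.

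Between sample types, 1 of 9 genes was called, where 14.6% of all genes were. Myh7 was lower in LCM than in whole lung samples: it lay between 0 and 64.3 CPM with a median of 7.28 in the 13 LCM samples, and between 3.13 and 87.5 CPM with a median of 21.6 in the 12 whole lung samples. The groups overlapped, and 10 of 13 LCM samples were below the whole lung mean of log2 CPM. The log2 fold change was -1.803 ± 0.56 with an adjusted p of 0.0340 in edgeR and 0.00388 in DESeq2. This call rested on single samples: it was lost without moderate to severe dysplasia replicate 4 (adjusted p = 0.0523 in edgeR), 7 (0.0578) or 14 (0.0827), without normal replicate 7 (0.0697), and without mild dysplasia replicate 3 (0.0667) or 5 (0.0564), at log2 fold changes from -1.73 to -1.55. It was also lost without the 6 samples of low TIN, at -1.60 and an adjusted p of 0.0934. The fast and shared genes lay between -0.81 ± 1.46 for Myh1 and 0.71 ± 1.19 for Mylpf, and Tnnt1 was at -0.11 ± 0.39.

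Myh7 is made in heart muscle as well, and cardiac markers were present in these samples. Of 12 cardiac markers, 9 were tested and 0 were called between sample types, with a median log2 fold change of -1.18 over the 9, against -0.03 over all genes. Myh6, the atrial heavy chain next to Myh7 on chromosome 14, was at -2.23 ± 0.997 (adjusted p = 0.133 in edgeR). In the 4 samples highest in Myh7, given above, Myh6 was 807, 17.8, 159 and 90.3 CPM, and cardiac troponin I (Tnni3) was 167, 3.57, 104 and 41.0 CPM. In the 4 samples highest in Mylpf, Myh6 was 0, 0, 3.71 and 1.61 CPM and Tnni3 was 1.89, 1.44, 6.44 and 0.403 CPM. Summed over the 12 markers, which include Actc1 and Sln, genes that skeletal muscle also makes, the level in those 4 samples was 584, 487, 502 and 230.1 CPM. Over all samples it ran from 45.2 to 706 CPM in LCM and from 16.7 to 2172 CPM in whole lung samples. The part of cardiac muscle in the Myh7 difference was not tested.

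**Figure D5:**
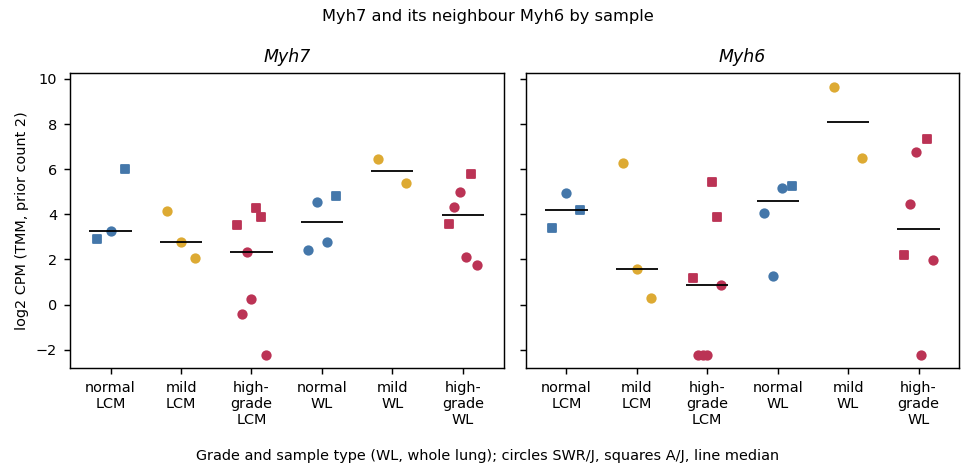
Log2 CPM (TMM, prior count 2) of Myh7 and Myh6 in each sample by grade and sample type, with circles for SWR/J, squares for A/J and a line at the median of each group. Myh7 is at most 64.3 CPM in LCM and 87.5 CPM in whole lung samples, and in both genes the lowest points are high-grade samples.

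For A/J against SWR/J mice, 0 of 9 genes were called by edgeR, where 1.02% of all genes were. Of the 9, 1 had an unadjusted p under 0.05, where 2742 of 15630 genes did. This was Tnnt1, which lay between 0.106 and 3.19 CPM with a median of 1.59 in the 8 A/J samples. In the 17 SWR/J samples it lay between 1.07 and 10.6 CPM with a median of 6.07. The ranges overlapped, and 8 of 8 A/J samples were below the SWR/J mean. Its log2 fold change was -1.82 ± 0.61 with an adjusted p of 0.136 in edgeR. The call changed under other settings: DESeq2 gave an adjusted p of 0.0271, and edgeR without TIN as a covariate gave 0.0100. Myh7 pointed the other way, at 1.495 ± 0.82 (adjusted p = 0.341 in edgeR). It lay between 7.28 and 64.3 CPM in A/J and between 0 and 87.5 CPM in SWR/J samples, and 8 of 8 A/J samples were above the SWR/J mean. Without TIN as a covariate its fold change was 2.24 with an adjusted p of 0.0203 in edgeR. In that fit 2553 of 15630 genes were called. Median TIN ran from 53.7 to 69.6 in A/J and from 21.7 to 75.1 in SWR/J samples, so that fit does not separate strain from RNA quality. Acta1 was at -3.92 ± 2.81 and the 5 fast genes lay between -2.72 and -2.12, with SEs from 1.95 to 3.02. The highest Mylpf in an A/J sample was 187 CPM, in moderate to severe dysplasia replicate 8.

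The rest of the muscle programme was read from lists of other muscle genes. Of 12 other fast fibre genes, such as Myl1 and Tnni2, all were tested and 0 were called in any of the 4 comparisons. Their median log2 fold change in high-grade against normal samples was 1.65, where that over all genes was 0.00 and that over the 5 fast members was 1.73. Of 30 other skeletal muscle genes, 28 were tested, and 1 was called in 1 comparison: Jph2, a junctophilin of the muscle membrane junctions that heart also makes, rose in mild dysplasia by 1.78 ± 0.59 (adjusted p = 0.0485 in edgeR).

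Of 7 other slow fibre genes, 4 were tested and 0 were called. They did not share one pattern. Myl3, the light chain of slow and ventricular myosin, was 730 CPM in moderate to severe dysplasia replicate 7, 527 in moderate to severe dysplasia replicate 13, 368 in severe dysplasia replicate 4 and 175 in severe dysplasia replicate 2, the samples where Myh7 was 0 to 4.04 CPM. Tnni1, the slow troponin I, was 11.3, 14.1, 17.6 and 2.01 CPM there and did not exceed 2.80 CPM elsewhere. Csrp3 (323 CPM) and Myoz2 (57.8 CPM) were also highest in severe dysplasia replicate 4, while Casq2 was highest in mild dysplasia replicate 3 (34.9 CPM). Myl2, the regulatory light chain of slow and ventricular muscle, did not exceed 6.44 CPM in any sample, and Myh7b did not exceed 1.28 CPM. Tnnc1 had 2 overlapping gene entries and was left out. Among factors that direct muscle formation, Myod1 and Myf5 stayed under 1 CPM in all samples, Myog reached 3.75 CPM and Myf6, which adult fibres keep, reached 11.7 CPM.

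The genes with a course most like the mean of the 5 fast members over the 25 samples, by the root mean square (RMS) difference of centred log2 CPM, were Myot (0.60), Mybpc1 (0.68), Pvalb (0.92), Cacng1 (0.94), A930016O22Rik (0.94), Atp2a1 (0.95), Myoz1 (0.96) and Myl1 (1.02). The median over genes was 2.99. Among the members themselves, the distance to that mean was 0.96 for Myh4, 1.08 for Tnnt3, 1.21 for Mylpf, 1.34 for Myh1 and 1.96 for Myh2. For the mean of the 2 slow members the nearest were Tmem163 (0.66), Smarca2 (0.70), Klf11 (0.71), Syne1 (0.72), Gpr4 (0.73), Fhod1 (0.73), Pltp (0.74) and C530008M17Rik (0.75), with a median over genes of 1.25. Myh7 and Tnnt1 were both 1.27 away from their own mean, farther than the median gene, so that this mean stands for neither of them. Between single members, Acta1 and Myh1 lay closest, at 0.91, and Acta1 and Myh7 farthest apart, at 5.25.

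Promoter sequences are shown because most shared and fast genes were high in the same samples while Myh7 was not. Tnnt1 did not exceed 10.6 CPM in any sample. RefSeq promoters (GRCm38.p6) matched 8 of the 9 members, all but Tnnt3. The E-box CANNTG holds the letters bound by MyoD-type factors among many others, and is the same on both strands. It was in the 250 bases before the start of 6 of 8 members and of 66.2% of 32851 promoters. The 6 were Acta1, Ckm, Myh4, Myh7, Tnnt1 and Mylpf, so the fast genes Myh1 and Myh2 held none there. The E-box form CAGCTG was in 4 of 8 (Acta1, Ckm, Myh4 and Mylpf), against 13% of promoters. CATTCC, the MCAT motif, searched on both strands, was in 4 of 8 (Acta1, Myh1, Myh4 and Myh7), against 12.6%. The 200 bases before the start are printed for 2 fast genes that hold a CANNTG and for both slow genes. They are Mylpf (plus strand, chr7:127211408-127211607), Myh4 (plus strand, chr11:67237612-67237811), Myh7 (minus strand, chr14:54994627-54994826) and Tnnt1 (minus strand, chr7:4515976-4516175). Capitals mark each CANNTG, and each of the 4 holds 1.
Mylpf promoter: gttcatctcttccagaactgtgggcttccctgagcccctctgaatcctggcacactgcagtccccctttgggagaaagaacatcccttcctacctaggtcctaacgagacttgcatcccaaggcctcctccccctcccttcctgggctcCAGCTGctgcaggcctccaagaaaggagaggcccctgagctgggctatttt
Myh4 promoter: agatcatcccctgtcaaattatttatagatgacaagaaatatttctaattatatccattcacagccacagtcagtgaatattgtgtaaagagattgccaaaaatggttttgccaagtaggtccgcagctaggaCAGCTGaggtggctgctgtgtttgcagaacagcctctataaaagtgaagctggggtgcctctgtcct
Myh7 promoter: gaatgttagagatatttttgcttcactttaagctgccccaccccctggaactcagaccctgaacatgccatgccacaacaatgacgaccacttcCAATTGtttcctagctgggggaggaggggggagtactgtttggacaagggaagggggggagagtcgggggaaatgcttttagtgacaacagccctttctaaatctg
Tnnt1 promoter: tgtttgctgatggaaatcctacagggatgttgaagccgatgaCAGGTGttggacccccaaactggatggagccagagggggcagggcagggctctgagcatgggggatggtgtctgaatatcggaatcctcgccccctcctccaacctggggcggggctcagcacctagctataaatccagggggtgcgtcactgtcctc

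In these windows the E-box of Mylpf and Myh4 was CAGCTG, that of Myh7 CAATTG and that of Tnnt1 CAGGTG. The fast genes Myh1 and Myh2 held no CANNTG, so these forms do not set all fast genes apart from slow ones. The match is one of letters and was not tested for binding.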

How the data were processed

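RNA sequencing of 40 mouse lung libraries was used. The authors prepared polyA libraries with a kit that does not mark strand, sequenced single-end reads of 50 bases and used Trimmomatic for trimming, STAR for alignment (mm9) and RSEM for quantification. The deposited values are expected counts for each gene, without normalisation. Of the deposited values, 88.8% were whole. Expected counts were rounded for the tests. Per the labels, 25 samples passed, and grade, strain, sample type and median TIN came from the labels.

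CPM used TMM factors from edgeR 4.0.16 in R 4.3.3, and log2 CPM a prior count of 2. Genes with an interquartile range of log2 CPM above 0 and a sum above 1 were kept (15630). The quasi-likelihood test of edgeR had grade group, median TIN, strain and sample type as terms and Benjamini-Hochberg adjustment over all genes. DESeq2 1.42.0, other scalings, filters, covariates, grade labels and sample sets, and leaving out each sample, were the alternatives; the set without samples of median TIN under 40 was added after the data were seen. The test was checked on simulated data. Levels per kb used the union of exons in the NCBIM37 annotation, in which all 37310 identifiers were found. Coding sequences were aligned with MAFFT 7.526. Named genes were the 9 members, genes of the muscle and tissue lists that passed the test or carried a comparison, and the 8 genes nearest in course to the fast and to the slow members. The members and lists were chosen with earlier results of these data known. Tnnc1 was left out because its symbol has overlapping gene entries. Every value column was matched to a sample.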

Additional observations from a re-analysis of the deposited data

Results flagged for a closer look

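The 15 libraries that did not pass quality control were outside every comparison above, except where all 40 samples were fitted. They hold between 17051 and 1965373 expected counts, fewer than any library that passed. In 8 of the 9 genes the highest CPM among them, by library size alone, was above the highest in a normal sample that passed. This sets 15 libraries of all grades against 7 normal samples, and the share over all genes was not computed. In the smallest library 1 count was 58.6 CPM. High-grade samples that passed also exceeded normal ones, with up to 3772 CPM of Acta1 and 2294 CPM of Mylpf after TMM. In moderate to severe dysplasia replicate 6 (42137 counts in all) Acta1 was 18496 CPM, Ckm 6764, Myh1 1540.2 and Tnnt3 4082 CPM, against highest normal values of 418, 222, 65.2 and 172 CPM. Mylpf was 3164 CPM in severe dysplasia replicate 3 (normal, 187). Severe dysplasia replicate 5, the deepest of these libraries, had 259.9 CPM of Myh4 (normal, 12.9) and 23.9 CPM of Tnnt1 (normal, 7.22), or 511 and 47 counts. Myh2 was 40.4 CPM in mild dysplasia replicate 7 (normal, 7.14). Myh7 was the exception: it did not exceed 8.13 CPM in these libraries, against 67.5 CPM in a normal sample that passed, and severe dysplasia replicate 5 had 0 Myh7 counts beside 17181 of Acta1. A search for samples that stand apart from their grade, over 27 sets of values, flagged 0. The spread within a grade was wide, with an SD of 4.57 log2 units for Acta1 in high-grade samples. The 0 therefore does not show that samples of a grade are alike.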

How the results depend on the processing

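Calls of members in high-grade against normal and in mild dysplasia against normal samples stayed at 0 of 9 under every alternative run, while calls over all genes ran from 0 to 95 (DESeq2; 3 as reported) and from 0 to 3653 (DESeq2; 1967 as reported). In mild dysplasia, fitting all 40 samples called 1 gene, and the histology as described, LCM samples alone and whole lung samples alone called 0, and 811 were called without samples of median TIN under 40. Between sample types, calls of members fell from 1 to 0 with no filter (Myh7 at -1.81, adjusted p = 0.0540 in edgeR), with all 40 samples (-1.34, 0.0845) and without samples of median TIN under 40 (-1.60, 0.0934), and leaving out each sample gave 0 to 1 calls, with 19 of 25 keeping it and Myh7 between -2.04 and -1.55. Calls over all genes ran from 1349 to 3348 against 2289. Between strains, calls of members rose from 0 to 1 with DESeq2 (Tnnt1) and to 2 without median TIN (Tnnt1 and Myh7), and were 0 without each sample. Calls over all genes there were 961 and 2553 against 159, and 96 to 430 without each sample. Of the 36 member estimates, 17 kept their sign under every alternative run, among them Myh7 between sample types and Myh7 and Tnnt1 between strains, and 19 did not, in 85 of 1256 values. Fast minus slow fibre genes had a median of 1.69, and of 1.65 with a prior count of 0.25, 1.10 with transcript lengths and 1.71 with no TMM factor.

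For high-grade against normal samples, Myh7 (-0.64) was at 0.35 in whole lung samples alone and 0.19 without samples of low TIN. Tnnt1 (0.03) was at -0.0097 with DESeq2, -0.012 with its size factors, -0.34 in whole lung samples alone and -0.083 without samples of low TIN, and ran from -0.13 to 0.28 without each sample. For mild dysplasia, grades as described gave Acta1 1.06, Ckm 1.67, Myh1 1.68, Myh2 3.69, Tnnt3 1.41 and Mylpf 0.98, and whole lung samples alone gave Acta1 3.88, Ckm 3.4001, Myh1 3.32, Myh2 6.18, Tnnt3 2.60, Mylpf 2.82 and Tnnt1 0.69. Myh2 was also at 0.12 without median TIN and 2.08 with all 40 samples, and ran from -3.36 to 1.17 without each sample, above 0 only without normal replicate 10. Myh4 (0.02) was at -0.13 with DESeq2, -0.54 in LCM samples alone and -0.16 without samples of low TIN, and ran from -1.15 to 0.75 without each sample.

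Between sample types, leaving out samples of low TIN gave Acta1 0.50, Myh1 0.13, Myh2 1.88, Myh4 0.060 and Tnnt1 0.074. Grades as described gave Acta1 0.19 and Myh2 0.22, all 40 samples gave Ckm -0.62, Tnnt3 -0.30 and Myh2 0.61, and the fit without median TIN gave Myh2 0.23. Without each sample, Acta1 ran from -0.88 to 1.88, Ckm from -0.82 to 1.07, Myh1 from -1.27 to 1.04, Myh2 from -1.36 to 1.46, Myh4 from -1.19 to 0.74, Tnnt1 from -0.27 to 0.063, Tnnt3 from -0.20 to 1.68 and Mylpf from -0.022 to 2.19. Between strains, Myh4 (-2.20) was at 0.072 with all 40 samples. The cause of these changes was not tested.

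Myh2 was not fitted under the filter with a prior count of 0.25. No paired analysis was possible because the labels carry no replicate numbers that pair samples.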
